A study of Macaca mulatta with 27 samples.

Results

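The genes described here are the 3 members of the MYC family, MYC, MYCN, and MYCL, the paralogues LIN28A and LIN28B, the 3 IGF2 mRNA-binding proteins IGF2BP1, IGF2BP2, and IGF2BP3, and the high-mobility-group genes HMGA1 and HMGA2. These 10 genes were chosen by name among 17967 gene symbols, from what is known of MYC, LIN28, and let-7. Earlier results of these data were known at that time. All 10 passed the filter on low counts in every comparison. They were measured by bulk RNA-seq in 27 libraries of rhesus embryonic stem cells, 6 of primed cells and 3 of cells cultured with each of 7 protocols meant to bring them to the naive state, the earlier of the pluripotent states. E-NHSM and NHSM-v are versions of one medium. The TL2i and TL-CDK8i protocols use tamoxifen, and the others are 4i/L/b, LCDM (EPS), and t2iLGöY. All groups, primed cells included, came from 1 clonal line, LyonES-tGFP-(S3), which carries a tauGFP transgene driven by the ubiquitous CAG promoter and a lentiviral STAT3-ERT2, a STAT3 protein that tamoxifen activates. TL2i cells received tamoxifen, LIF, and inhibitors of MEK and GSK3β. In TL-CDK8i cells, an inhibitor of the kinases CDK8 and CDK19 took the place of those inhibitors. Per the study, reprogrammed cells were passaged as single cells and primed cells as clumps, so each protocol differs from primed cells in its passaging too, and medium and passaging cannot be told apart. The labels do not say whether the libraries of a group came from separate cultures. The p-values therefore measure the spread between these libraries, which may be technical.

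MYC, MYCN, and MYCL encode transcription factors that pair with MAX on E-box DNA and drive genes of ribosome building, metabolism, and cell division. MYC is a textbook factor of pluripotent cell growth, and mouse cells that lack MYC activity enter a dormant state that resembles diapause. LIN28A and LIN28B bind the precursors of let-7, a microRNA family that accumulates as cells leave the embryonic state, and block their processing. Mature let-7 in turn represses mRNAs that carry its sites, among them LIN28A, LIN28B, HMGA2, MYCN, TRIM71, and those of the IGF2BP family, so that LIN28 and let-7 hold each other down. IGF2BP proteins bind and stabilise mRNAs, including that of MYC, and HMGA proteins bend AT-rich DNA in chromatin.

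Each of the 7 protocols changed the 10 genes in its own combination, and no protocol left them all at the primed level. MYC was the 1 gene that fell in all 7, by 1.17 to 6.25 on the log2 scale. LIN28A, IGF2BP2, IGF2BP3, and HMGA1 each fell in 6 protocols, MYCN, LIN28B, and IGF2BP1 in 5, and MYCL and HMGA2 in 2. HMGA2 rose in 4 protocols, MYCN in 2, and MYCL and IGF2BP3 in 1 each. A gene is said to rise or fall where edgeR's quasi-likelihood test gave a Benjamini-Hochberg adjusted p under 0.05 over all genes tested. The 7 comparisons use the same 6 primed libraries, so they are not independent of each other.

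A large share of all tested genes passed the same test. In E-NHSM cells 1 member rose and 5 fell, where 11.1% of all genes rose and 15.1% fell. NHSM-v cells had 1 higher and 8 lower members, against 28.0% and 30.6% of all genes. In 4i/L/b cells 1 rose and 9 fell, with 26.6% and 29.0% of all genes. TL2i cells, with 25.6% of all genes higher and 25.2% lower, had 2 members higher and 6 lower. In t2iLGöY cells no member rose and 9 fell, against 27.1% and 27.2%. LCDM (EPS) cells had 1 member higher and 8 lower, with 28.2% and 28.9% of all genes. TL-CDK8i cells had 2 higher and 5 lower, against 22.3% and 23.8%. The share of members that fell was above the share of all genes that fell in each of the 7 protocols. The members were chosen with earlier results of these data known, so this excess is a description and carries no test. The median log2 fold change of the 10 members ran from -0.38 in TL-CDK8i to -2.02 in NHSM-v cells, whereas that of all genes tested lay between -0.02 and 0.07.

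**Figure D1:**
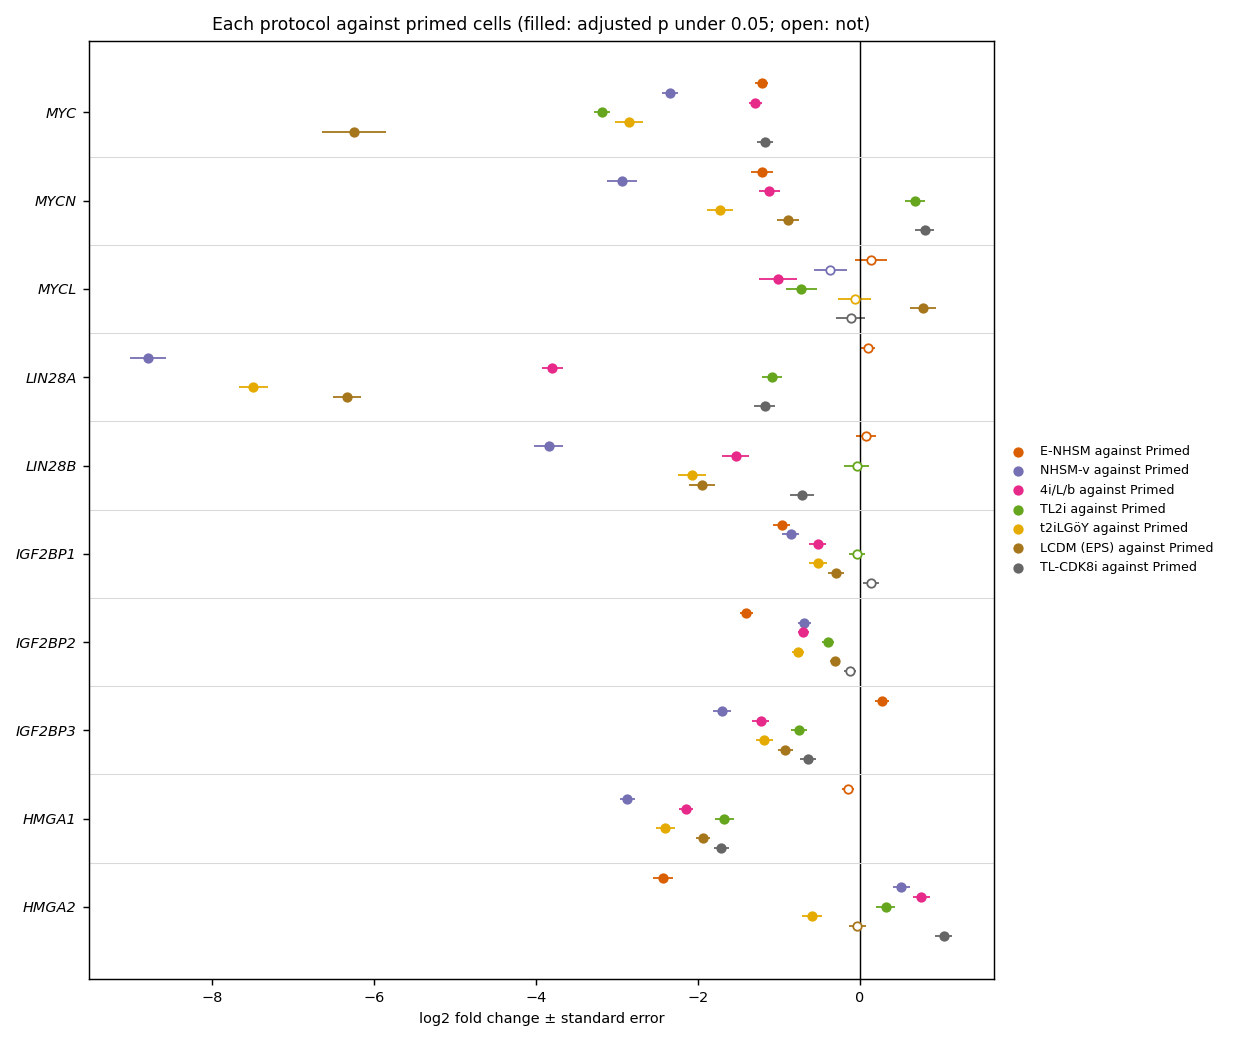
Log2 fold change of each of the 10 genes (rows) in each of the 7 protocols (colours) against the 6 primed libraries, with 3 libraries a protocol; bars show 1 standard error and open points did not pass an adjusted p of 0.05. MYC lies left of zero in every protocol, LIN28A reaches -8.79 in NHSM-v cells, and HMGA2 lies on both sides of zero.

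Total counts ranged from 7111886 to 20760914 per library, with a median of 12201171, so that 3 counts, taken as the floor, equal 0.141 to 0.429 counts per 1e+06 counts of a library (CPM). Markers of pluripotent cells (7 genes) summed to 3624 to 3945 CPM in primed, 3225 to 3457 in E-NHSM, and 1006 to 1432 in TL-CDK8i libraries. In the other 5 protocols the sum lay between 88.8 and 346 CPM, and NANOG, a core pluripotency factor, was at or under the floor in every library of NHSM-v, 4i/L/b, t2iLGöY, and LCDM (EPS). Those libraries therefore lack a defining marker of the cell type they are labelled with. In TL2i libraries NANOG was at 0.0583 to 0.539 CPM. POU5F1, another core factor, was at 1104 to 1296 CPM in primed libraries and at most 7.69 CPM in any library of these 5 protocols. SOX2, at 72.3 to 338 CPM, carried most of their sum, and in LCDM (EPS) libraries it held 323 to 338 CPM. Markers of fibroblasts (8 genes, 3 of them collagens) summed to 1180 to 2451 CPM in primed, 406 to 443 in E-NHSM, 813 to 1056 in LCDM (EPS), and 3053 to 15872 CPM in the other 5 protocols. Of 7 neural markers, 7 rose in LCDM (EPS), 6 in NHSM-v and t2iLGöY, 5 in 4i/L/b and TL2i, and 3 in TL-CDK8i cells, with list medians of 3.34 to 8.35 on the log2 scale, and 1 rose in E-NHSM cells. In NHSM-v, t2iLGöY, TL-CDK8i, and E-NHSM cells 1 marker fell, and only 5 were tested in TL-CDK8i and 4 in E-NHSM cells. Of all genes 11.1% rose in E-NHSM and 22.3% to 28.2% in the other protocols. The share of all genes that fell was 15.1% in E-NHSM and 23.8% to 30.6% in the others. NES, a neural progenitor filament that was already abundant in primed cells, carried most of their sum of 2234 to 2574 CPM in primed libraries, which became 5319 to 5445 CPM in LCDM (EPS) libraries. The neural sum was below the primed range in E-NHSM, at 1230 to 1365 CPM, and in TL-CDK8i libraries, at 1992 to 2120 CPM. Trophoblast markers (5 genes) summed to 3.59 to 14.7 CPM in primed libraries and to 106 to 232 CPM in TL2i, t2iLGöY, LCDM (EPS), and TL-CDK8i libraries. Of the 5 genes, 4 rose in TL2i cells, where 25.6% of all genes rose. In TL-CDK8i cells 4 of the 5 were tested and 2 rose, where 22.3% of all genes rose. In t2iLGöY and LCDM (EPS) cells CDX2 and KRT7 were at or under the floor in every library. Of the 3 genes tested there, 1 rose and 1 fell in each protocol, so the sum does not stand for the whole list. Endoderm markers (5 genes) summed to 11.2 to 21.3 CPM in primed, 45.5 to 76.7 CPM in TL2i, and 39.3 CPM or less in the other libraries. The part of these shifts in the results below was not tested, and in bulk RNA a smaller share of cells of a type cannot be told apart from less RNA per cell. The columns of primed cells carry the letters J and K, 3 each, whose meaning is not given, and MYCN, MYCL, LIN28A, and LIN28B were higher in every K than in every J library, by 0.30 to 0.51 on the log2 scale.

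MYC itself, the most widely expressed member of its family, ran from 326 to 382 CPM in primed libraries, with a median of 355 CPM. In LCDM (EPS) cells it stood at 9.68, 2.88, and 1.73 CPM in replicates 1 to 3. All 3 are far below the lowest primed library, and replicate 1 is well above the other two. The fitted change was -6.25 ± 0.394 (log2 fold change ± standard error, adjusted p = 9.7e-09), 75.0-fold lower in mean CPM, and -7.23 without replicate 1.

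The other protocols kept more MYC. In TL2i cells the 3 libraries held 40.1, 40.8, and 37.1 CPM of MYC, which is -3.18 ± 0.0957 on the log2 scale (adjusted p = 1.4e-11). In t2iLGöY cells MYC was at 61.8, 31.2, and 52.7 CPM, with a log2 fold change of -2.85 ± 0.175. These ranges overlapped, so TL2i and t2iLGöY are neighbours whose order is not set by these libraries. NHSM-v cells held 75.2, 73.8, and 65.8 CPM, for a change of -2.34 ± 0.0935. The 3 remaining protocols formed a group of like level, with 153, 147, and 151 CPM in 4i/L/b, 153, 164, and 147 CPM in E-NHSM, and 140, 173, and 180 CPM in TL-CDK8i libraries. Their libraries overlapped each other and none reached the primed range, with log2 fold changes of -1.29, -1.21, and -1.17.

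MYCN, the family member best known from embryonic neural and stem cells, took another course. Primed libraries ranged from 80.5 to 115 CPM, with a median of 93.9 CPM. In TL2i cells MYCN was at 173, 132, and 151 CPM, and in TL-CDK8i cells at 175, 154, and 186 CPM. Every library of these tamoxifen-treated groups was above every primed library, with changes of 0.68 ± 0.122 (adjusted p = 0.00038) and 0.81 ± 0.118 (adjusted p = 6.6e-05). The other 5 protocols fell below the primed range in every library. NHSM-v held 15.2, 13.2, and 9.59 CPM, a log2 fold change of -2.93 ± 0.186, and t2iLGöY 33.1, 23.4, and 27.9 CPM, a change of -1.72 ± 0.160. E-NHSM, 4i/L/b, and LCDM (EPS) lay between 38.4 and 56.2 CPM, and neighbours in that order overlapped. MYCN shares its locus with an antisense gene, and since the strand setting of the counting is not given, reads of that partner cannot be told apart from those of MYCN.

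MYCL, the third member, moved least. It was at 21.4 to 33.9 CPM in primed libraries, with a median of 24.1 CPM. In LCDM (EPS) cells, where MYC was lowest, MYCL was at 45.2, 46.4, and 39.4 CPM, all above the primed range, with a log2 fold change of 0.78 ± 0.165 (adjusted p = 0.001). It fell in 4i/L/b cells, with 8.94, 12.6, and 17.5 CPM (-1.0 ± 0.236), and in TL2i cells, with 15.6, 14.8, and 16 CPM (-0.72 ± 0.188). The other 4 protocols overlapped the primed range. Their log2 fold changes, none of which passed the test, lay between -0.36 in NHSM-v and 0.14 in E-NHSM cells, with intervals of ±2 standard errors from -0.77 to 0.05 and from -0.26 to 0.53.

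**Figure D2:**
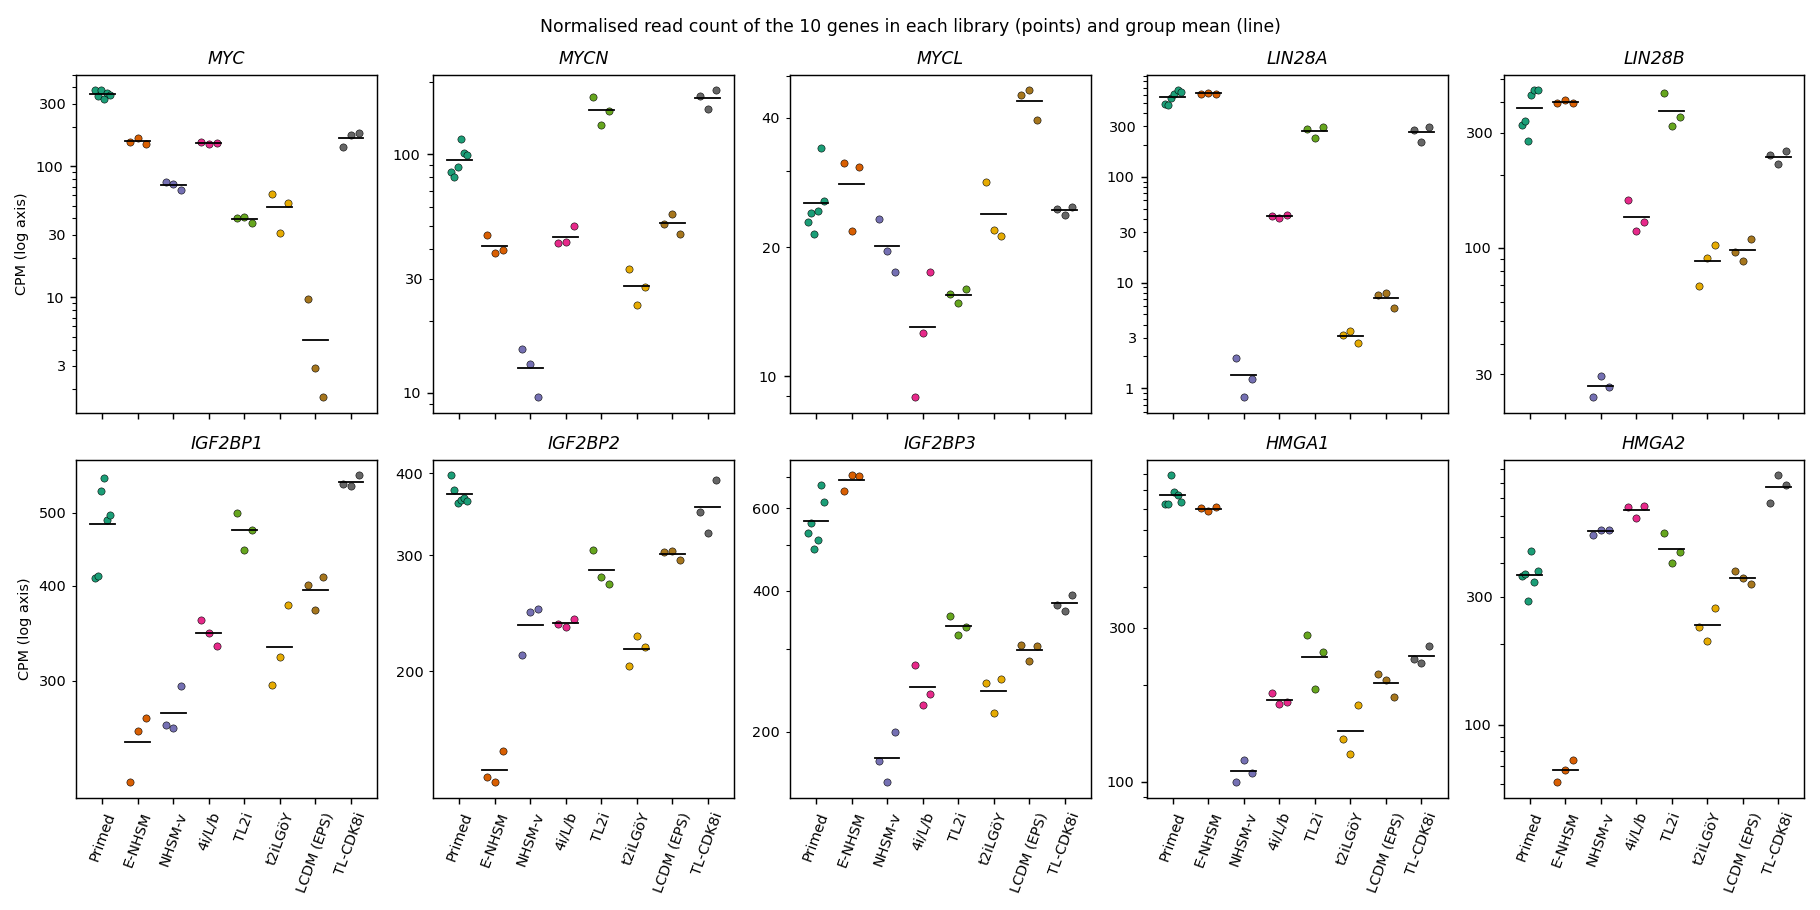
CPM of the 10 genes, 1 panel each, on a log axis; each point is a library and each line a group mean, with 6 primed libraries and 3 of each protocol. MYC in LCDM (EPS) cells spreads from 1.73 to 9.68 CPM, and HMGA2 in E-NHSM cells, at 60.8 to 73.4 CPM, lies below every other library.

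LIN28A, which recruits terminal uridylyltransferases to let-7 precursors in the cytoplasm, showed the widest range of the 10 genes. Primed libraries held 480 to 665 CPM, with a median of 585 CPM, and E-NHSM libraries 604, 628, and 615 CPM, within that range. In NHSM-v cells LIN28A was at 1.92, 0.823, and 1.23 CPM, and in t2iLGöY cells at 3.21, 3.47, and 2.67 CPM. Their mean CPM was 433-fold and 184-fold below that of primed cells, with log2 fold changes of -8.79 ± 0.219 (adjusted p = 2.3e-13) and -7.49 ± 0.174 (adjusted p = 2.2e-13). LCDM (EPS) libraries held 7.63, 7.92, and 5.74 CPM (-6.33 ± 0.169), and 4i/L/b libraries 42.7, 40.8, and 44.0 CPM (-3.80 ± 0.132). The tamoxifen-treated protocols kept LIN28A, at 286, 231, and 297 CPM in TL2i and 280, 215, and 294 CPM in TL-CDK8i cells. All 6 of these libraries were below the primed range, with changes of -1.08 ± 0.122 and -1.17 ± 0.128, and they overlapped each other.

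LIN28B, the paralogue that can hold let-7 primary transcripts in the nucleus, fell less, and its 8 group means stood in the same order as those of LIN28A. Primed libraries ranged from 278 to 450 CPM, with a median of 383 CPM. NHSM-v was again lowest, with 24.1, 29.6, and 26.6 CPM (-3.84 ± 0.180, adjusted p = 1.4e-10). The groups next to it were t2iLGöY, with 69.9, 91.3, and 103 CPM (-2.07 ± 0.174), and LCDM (EPS), with 96.2, 88.2, and 109 CPM (-1.95 ± 0.159), and these overlapped. LIN28B also fell in 4i/L/b cells, with 157, 118, and 128 CPM (-1.53 ± 0.164), and in TL-CDK8i cells, with 242, 223, and 251 CPM (-0.71 ± 0.144). In TL2i cells it was at 437, 320, and 349 CPM and in E-NHSM cells at 397, 408, and 399 CPM, both inside the primed range.

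Where LIN28 genes lay near the primed level, the choice of primed columns mattered. In E-NHSM cells the log2 fold changes of LIN28A and LIN28B were 0.10 ± 0.0930 and 0.08 ± 0.125. Against the J columns alone both passed the test, at 0.28 and 0.36, and against the K columns alone they were -0.05 and -0.14. LIN28B in TL2i cells, at -0.04 ± 0.152 over all primed libraries, was at 0.25 against the J and at -0.28 against the K columns, and the latter passed the test. No other call on a LIN28 gene changed with the letter.

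IGF2BP1, IGF2BP2, and IGF2BP3 are close relatives that carry mRNAs through the cytoplasm, and all are usual let-7 targets. Their changes were smaller than those of LIN28A, between -1.70 and 0.28. IGF2BP1 ran from 410 to 556 CPM in primed libraries and was lowest in E-NHSM, with 220, 258, and 268 CPM (-0.96 ± 0.104), and in NHSM-v, with 262, 259, and 295 CPM (-0.85 ± 0.106). Those groups overlapped each other and none of their libraries reached the primed range. IGF2BP1 fell too in 4i/L/b (-0.52 ± 0.103) and t2iLGöY cells (-0.51 ± 0.111). In LCDM (EPS) cells the change was -0.29 ± 0.0997 (adjusted p = 0.024), and 1 of the 3 libraries overlapped the primed range. It no longer passed the test without any 1 of the 3 LCDM (EPS) libraries (-0.22 to -0.30) or without primed K3 (-0.26), or against the J columns alone (-0.17). In TL2i and TL-CDK8i cells IGF2BP1 did not pass, with intervals of -0.23 to 0.17 and -0.06 to 0.33.

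IGF2BP2 was held within 361 to 398 CPM in primed libraries, the narrowest spread of the 10 genes for its level, with an SD of 13.9 CPM. E-NHSM cells held 138, 135, and 151 CPM, the lowest of all groups (-1.40 ± 0.0794, adjusted p = 5.3e-10). In the protocols with the lowest LIN28A, IGF2BP2 kept more, with 211 to 249 CPM in NHSM-v, 204 to 226 CPM in t2iLGöY, and 295 to 305 CPM in LCDM (EPS) libraries. Its log2 fold changes there were -0.68, -0.76, and -0.30, and in 4i/L/b and TL2i cells -0.70 and -0.39. TL-CDK8i libraries, with 325 to 391 CPM, overlapped the primed range and did not pass the test (-0.12 ± 0.0780).

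IGF2BP3 split E-NHSM from the rest. Primed libraries ranged from 491 to 672 CPM. E-NHSM libraries held 654, 706, and 704 CPM, 1 of them inside the primed range, with a log2 fold change of 0.28 ± 0.0850 (adjusted p = 0.02). That call was lost without E-NHSM replicate 2 (0.27) or 3 (0.27) and against the K columns alone (0.19). In the other 6 protocols IGF2BP3 fell, to 156 to 200 CPM in NHSM-v (-1.70 ± 0.112), 219 to 278 CPM in t2iLGöY and 4i/L/b (-1.18 and -1.22), and 283 to 391 CPM in LCDM (EPS), TL2i, and TL-CDK8i cells (-0.92, -0.75, and -0.64). None of these 18 libraries reached the primed range.

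HMGA1, which is abundant in embryonic and other fast-growing cells, fell in every protocol other than E-NHSM. Primed libraries held 725 to 890 CPM, with a median of 754 CPM, and E-NHSM libraries 702, 691, and 710 CPM. E-NHSM lay just below the primed range, and the change of -0.15 ± 0.0702 did not pass the test (adjusted p = 0.14). The other 6 protocols held 284 CPM or less in every library. HMGA1 was lowest in NHSM-v, with 99.6, 117, and 107 CPM (-2.87 ± 0.0963, adjusted p = 3.4e-12), followed by t2iLGöY, with 136, 122, and 173 CPM (-2.40 ± 0.115), and 4i/L/b, with 188, 174, and 176 CPM (-2.15 ± 0.0870). LCDM (EPS), TL2i, and TL-CDK8i cells had changes of -1.94, -1.67, and -1.71, TL2i libraries overlapped those of the other two, and LCDM (EPS) libraries overlapped those of 4i/L/b. HMGA1 has processed pseudogenes in primate genomes, and reads shared with them may have been lost or split in the counting.

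HMGA2, the classical let-7 target, whose transcript carries many let-7 sites, rose in 4 of the 7 protocols. Its call in 1 of these, TL2i, was lost under several alternatives. Primed libraries ranged from 289 to 443 CPM, with a median of 361 CPM. In TL-CDK8i cells HMGA2 was at 671, 853, and 781 CPM (1.04 ± 0.109, adjusted p = 3e-06), in 4i/L/b cells at 650, 591, and 652 CPM (0.76 ± 0.103), and in NHSM-v cells at 510, 534, and 532 CPM (0.52 ± 0.101). All 9 libraries were above the primed range. NHSM-v cells, in which both LIN28 genes were lowest, were thus among the groups in which HMGA2 rose.

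In TL2i cells HMGA2 was at 517, 401, and 439 CPM and overlapped the primed range. The change of 0.32 ± 0.114 passed the test (adjusted p = 0.03) but no longer did so without TL2i replicate 1 (0.22) or 3 (0.35), without primed J1 (0.29) or K2 (0.30), or against the K columns alone (0.22). LCDM (EPS) cells, at 376, 351, and 334 CPM, lay inside the primed range (-0.03 ± 0.104, interval -0.24 to 0.18). HMGA2 fell in t2iLGöY cells, with 231, 204, and 272 CPM (-0.59 ± 0.121), and most in E-NHSM cells, with 60.8, 67.9, and 73.4 CPM (-2.43 ± 0.122, adjusted p = 1.3e-10). The 3 protocols in which every library was above the primed range were also those of highest fibroblast marker sums, 8824 to 15872 CPM, and E-NHSM had the lowest. TL2i and t2iLGöY libraries, in which HMGA2 rose and fell, had overlapping sums of 3053 to 5894 and 3672 to 4316 CPM. Of the 8 fibroblast markers, LUM and DCN were at or under the floor in every primed, E-NHSM, and t2iLGöY library. In t2iLGöY cells 3 others rose and 2 fell, where 27.1% of all genes rose and 27.2% fell. The part of fibroblast-like RNA in the HMGA2 result was not tested.

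The ratio of the counts of 2 genes within a library does not depend on how libraries are scaled, and it shows whether relatives changed together. The ratios were computed after the values above had been seen and carry no test. MYCN over MYC was 0.222 to 0.354 in primed libraries and stayed within that range in E-NHSM (0.234 to 0.297) and 4i/L/b cells (0.278 to 0.331). It rose to 0.894 to 1.25 in TL-CDK8i, 3.24 to 4.32 in TL2i, and 5.29 to 26.7 in LCDM (EPS) libraries. NHSM-v was the 1 protocol below the primed range, at 0.146 to 0.202, and t2iLGöY lay at 0.529 to 0.748.

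LIN28A over LIN28B was 1.42 to 2.01 in primed and 1.52 to 1.54 in E-NHSM libraries. It lay below the primed range in the other 6 protocols, at 0.966 to 1.17 in TL-CDK8i, 0.655 to 0.850 in TL2i, 0.271 to 0.346 in 4i/L/b, and 0.0260 to 0.0898 in LCDM (EPS), NHSM-v, and t2iLGöY libraries. HMGA2 over HMGA1 was 0.325 to 0.562 in primed libraries and 0.0866 to 0.103 in E-NHSM. In each of the other 6 protocols it was above the primed range, from 1.57 to 1.70 in t2iLGöY up to 4.57 to 5.12 in NHSM-v cells. IGF2BP3 over IGF2BP2 was 1.33 to 1.83 in primed and 4.65 to 5.22 in E-NHSM libraries, and between 0.634 and 1.25 in the other 6 protocols. E-NHSM cells thus lay within the primed range for MYCN over MYC and LIN28A over LIN28B and outside it for HMGA2 over HMGA1 and IGF2BP3 over IGF2BP2, in directions opposite to those of the other protocols.

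**Figure D3:**
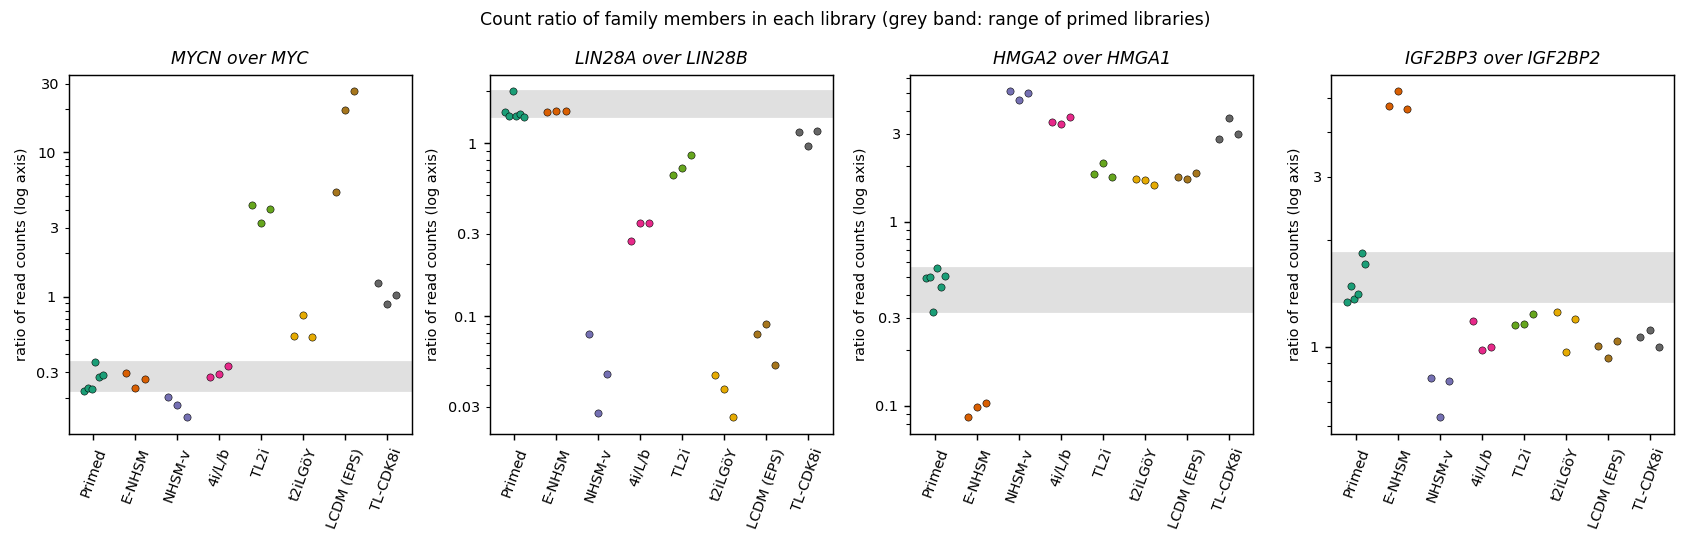
Ratio of read counts between relatives in each of the 27 libraries, on a log axis, with the range of the 6 primed libraries in grey. E-NHSM lies inside the band for MYCN over MYC and LIN28A over LIN28B, below it for HMGA2 over HMGA1, and above it for IGF2BP3 over IGF2BP2.

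TL-CDK8i and TL2i share tamoxifen and LIF and differ in their kinase inhibitors, so their direct comparison asks what the exchange of inhibitors did. MYC was 4.18-fold higher in mean CPM in TL-CDK8i than in TL2i cells, with a log2 fold change of 2.03 ± 0.106 (adjusted p = 2.2e-09). Of the 10 genes 4 were higher and 1 lower in TL-CDK8i cells, with 31.5% of all genes higher and 33.3% lower. MYCL (0.63 ± 0.135), HMGA2 (0.73 ± 0.112), and IGF2BP2 (0.29 ± 0.0955) rose with MYC, and LIN28B was lower (-0.66 ± 0.113). The call on IGF2BP2 was lost without TL2i replicate 3 (0.27) or TL-CDK8i replicate 3 (0.22). MYCN, LIN28A, IGF2BP3, and HMGA1 did not pass the test, with intervals of -0.08 to 0.36, -0.33 to 0.18, -0.05 to 0.30, and -0.26 to 0.22. IGF2BP1 missed the threshold (0.18 ± 0.0867, adjusted p = 0.079) and passed it by DESeq2 (0.20) and without TL2i replicate 1 (0.24). TL-CDK8i cells also had higher pluripotency marker sums, 1006 to 1432 CPM against 143 to 151 CPM, and higher fibroblast marker sums, 9087 to 11713 CPM against 3053 to 5894 CPM, whose part was not tested.

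E-NHSM and NHSM-v are 2 versions of the NHSM medium, and 9 of the 10 genes differed between them. In NHSM-v cells HMGA2 was 7.80-fold higher in mean CPM (2.96 ± 0.0771, adjusted p = 1.8e-13) and IGF2BP2 1.66-fold higher (0.73 ± 0.0829). The 7 others that differed were lower in NHSM-v, where 33.4% of all genes were higher and 34.8% lower. LIN28A fell by 8.88 on the log2 scale (± 0.129), LIN28B by 3.91, HMGA1 by 2.71, IGF2BP3 by 1.97, MYCN by 1.72, and MYC by 1.12. MYCL, at -0.48 ± 0.205 (adjusted p = 0.049), had overlapping libraries and lost its call without E-NHSM replicate 1 (-0.38) or 3 (-0.40), without NHSM-v replicate 2 (-0.46) or 3 (-0.39), by DESeq2 (-0.46), and with no filter on low counts (-0.48). IGF2BP1 did not pass the test (0.13, interval -0.04 to 0.29).

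**Figure D4:**
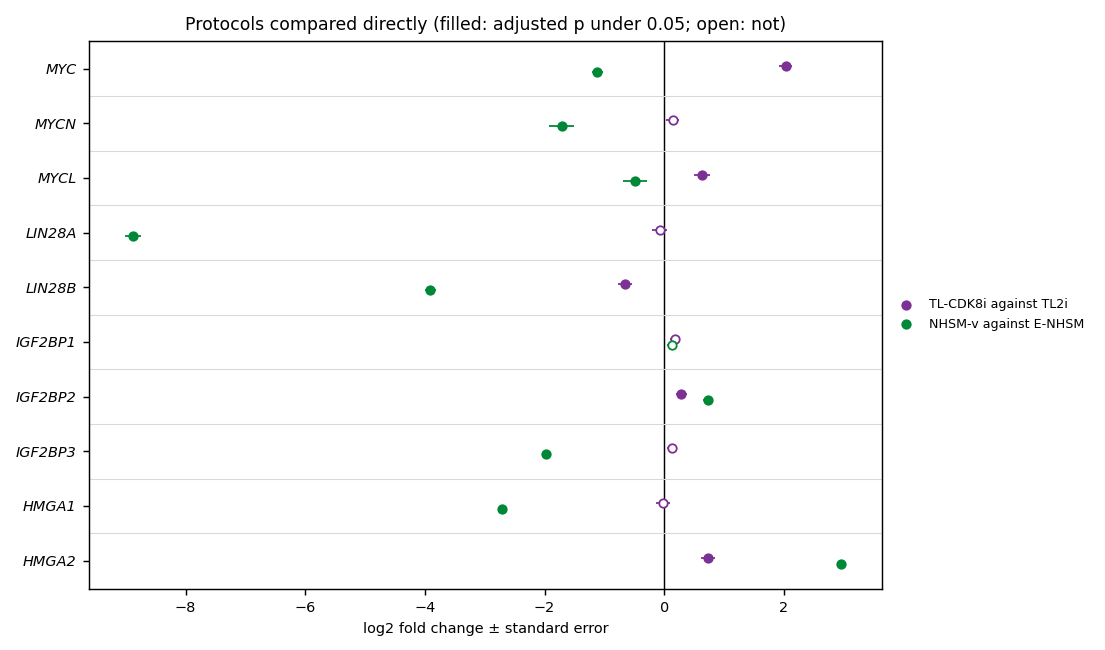
Log2 fold change of the 10 genes between TL-CDK8i and TL2i cells (purple) and between NHSM-v and E-NHSM cells (green), with 3 libraries a group and bars of 1 standard error; open points did not pass an adjusted p of 0.05. MYC lies at 2.03 in the first and at -1.12 in the second comparison, and HMGA2 is above zero in both.

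Most of the MYC targets listed fell in the protocols other than E-NHSM. The list of 15 textbook MYC targets holds mostly genes that make ribosomes, polyamines, and nucleotides, and also LDHA, TERT, and CDK4. Of the 15, 13 fell in NHSM-v, 4i/L/b, t2iLGöY, and LCDM (EPS) cells each, 11 in TL2i, and 9 in TL-CDK8i cells. In E-NHSM cells 3 rose and 3 fell, where 11.1% of all genes rose and 15.1% fell. In the other protocols 23.8% to 30.6% of all genes fell. The median log2 fold change of the list was -1.23 in NHSM-v, -1.17 in t2iLGöY, -1.01 in 4i/L/b, -0.85 in LCDM (EPS), -0.63 in TL-CDK8i, -0.50 in TL2i, and 0.01 in E-NHSM cells, with all genes between -0.02 and 0.07. The order of these medians is not that of MYC itself, which was lowest in LCDM (EPS) cells. NOP58, a core protein of the small nucleolar particles that modify ribosomal RNA, fell in all 7 protocols, from 333 to 382 CPM in primed libraries to 117 to 144 CPM in NHSM-v (-1.50 ± 0.0963) and 278 to 294 CPM in E-NHSM libraries (-0.32 ± 0.0793). LDHA, which makes lactate, spread from 395 to 1235 CPM in primed libraries, rose in E-NHSM cells (1.04 ± 0.259), and fell in 5 protocols, most in t2iLGöY cells, to at most 104 CPM (-2.93 ± 0.344). Between TL-CDK8i and TL2i cells, which differ in MYC, 6 of the 15 were higher and 4 lower in TL-CDK8i, with a median of -0.01. These counts are not far from the shares of all genes, 31.5% higher and 33.3% lower.

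Of 9 genes of the MAX network, 5 rose and 1 fell in t2iLGöY, 5 rose and 2 fell in LCDM (EPS), 3 rose in NHSM-v, 3 rose and 1 fell in TL2i, and 2 rose and 2 fell in 4i/L/b cells. Several of these counts lie near the share of all genes, 25.6% to 28.2% higher and 25.2% to 30.6% lower in those protocols. In E-NHSM and TL-CDK8i cells 1 rose and 1 fell, and 1 remained called without E-NHSM replicate 1 or 3 or without TL-CDK8i replicate 2. Of all genes 11.1% rose and 15.1% fell in E-NHSM, and 22.3% rose and 23.8% fell in TL-CDK8i cells. The counts of these 2 protocols thus lie near or below those shares. MXD4, a MAX partner that represses MYC sites, was at 14.1 to 30.6 CPM in primed libraries and rose in 6 protocols, most in t2iLGöY cells, to 95.3 to 103 CPM (2.24 ± 0.203). MXD3, of the same kind, rose in 5, most in LCDM (EPS) cells (2.36 ± 0.429), from 0.770 to 5.71 CPM in primed to 15.9 to 22.9 CPM. MLXIP, which senses glucose metabolites with its partner MLX, fell in 4 protocols, by 1.05 in 4i/L/b cells. Both MXD genes were lower in TL-CDK8i than in TL2i cells, by 2.43 and 1.26 for MXD3 and MXD4.

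Of 10 genes that set MYC protein stability or act as its cofactors, 4 to 6 fell in each protocol and at most 2 rose. Of all genes 15.1% fell in E-NHSM and 23.8% to 30.6% in the other protocols. The share of all genes that rose was 11.1% in E-NHSM and 22.3% to 28.2% in the other protocols. The list medians lay between -0.50 in t2iLGöY and -0.01 in E-NHSM cells. Without E-NHSM replicate 3, the 5 calls in E-NHSM cells became 3. USP28, a deubiquitinase that spares MYC from degradation, fell in 6 protocols, from 81.7 to 162 CPM in primed to 42.2 to 62.1 CPM in t2iLGöY libraries (-1.32 ± 0.194). PIM1, a kinase that phosphorylates MYC and is itself a STAT3 target, fell in 5, most in t2iLGöY cells (-3.13 ± 0.196). It fell in TL2i cells too (-1.34 ± 0.169), and did not pass the test in TL-CDK8i cells (-0.40 ± 0.162).

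Of 15 further let-7 targets, 10 fell in t2iLGöY and LCDM (EPS) cells each, 9 in E-NHSM and NHSM-v, 7 in 4i/L/b, 6 in TL2i, and 5 in TL-CDK8i cells, and 0 to 4 rose. Of all genes 15.1% fell in E-NHSM and 23.8% to 30.6% in the other protocols, and 11.1% and 22.3% to 28.2% rose, so that the counts in TL-CDK8i and 4i/L/b cells are not far from these shares. Their median log2 fold change was -1.51 in LCDM (EPS), -1.21 in t2iLGöY, -0.75 in NHSM-v, -0.41 in E-NHSM, -0.40 in 4i/L/b, -0.15 in TL2i, and -0.09 in TL-CDK8i cells. Without TL-CDK8i replicate 2, the 8 calls in TL-CDK8i cells became 4. TRIM71, an RNA-binding protein and a founding let-7 target of worms, ranged from 302 to 594 CPM in primed libraries and fell in 6 protocols. It was at 2.20 to 4.22 CPM in NHSM-v (-7.19 ± 0.331, adjusted p = 1.2e-10) and at 7.50 to 12.9 CPM in t2iLGöY libraries (-5.43 ± 0.292). NR6A1, a nuclear receptor that shuts pluripotency genes off during differentiation, fell in 5 protocols, by 5.15 in NHSM-v cells, and rose in TL2i cells (0.71 ± 0.183).

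**Figure D5:**
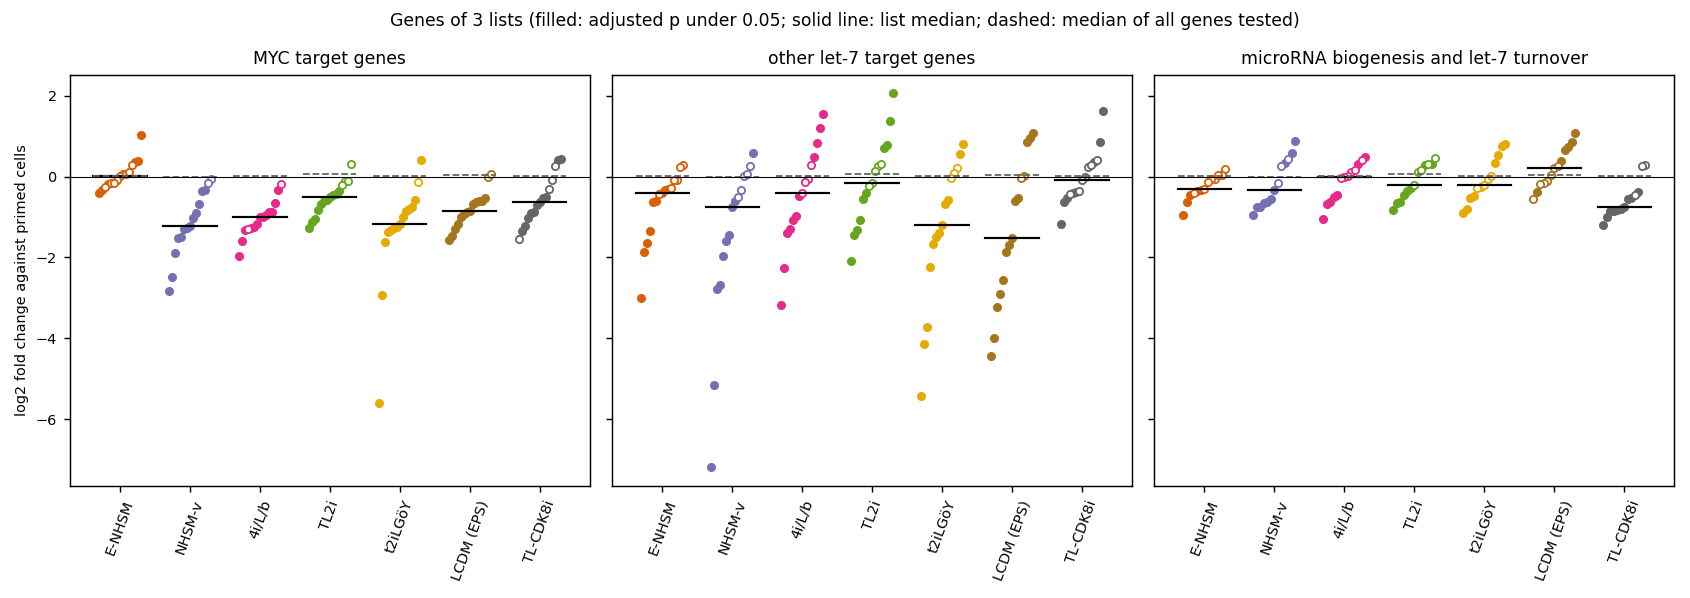
Log2 fold change against primed cells of the genes of 3 lists in each protocol, 1 point a gene, open where the adjusted p was not under 0.05; solid lines mark the list median and dashed lines the median of all genes tested. The 15 MYC targets lie mostly below zero outside E-NHSM, whereas the 13 microRNA biogenesis genes stay between -1.19 and 1.07.

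The genes that make and turn over let-7 mostly fell in TL-CDK8i cells and moved in both directions in 5 other protocols. Of 13 genes measured, 10 fell in TL-CDK8i, 7 fell and 3 rose in NHSM-v, and 6 fell and 2 rose in TL2i cells. In 4i/L/b cells 5 fell and 2 rose, and in E-NHSM cells 5 fell. In t2iLGöY cells 4 fell and 4 rose, and in LCDM (EPS) cells 1 fell and 5 rose. Of all genes 15.1% fell in E-NHSM and 23.8% to 30.6% in the other protocols. The share that rose was 11.1% in E-NHSM and 22.3% to 28.2% in the others. The counts in t2iLGöY and 4i/L/b cells are not far from these shares. The list median was -0.74 in TL-CDK8i, between -0.34 and -0.02 in NHSM-v, E-NHSM, t2iLGöY, TL2i, and 4i/L/b, and 0.22 in LCDM (EPS) cells. The 8 calls in TL2i cells became 5 and 4 without TL2i replicate 1 and 3, and the 8 in t2iLGöY cells became 4 without t2iLGöY replicate 1. DICER1, which cuts microRNA precursors and is itself a let-7 target, rose in 4 protocols, to 322 to 396 CPM in LCDM (EPS) from 138 to 231 CPM in primed libraries (1.07 ± 0.128), and fell in E-NHSM cells (-0.62 ± 0.131). XPO5, the exporter of precursors from the nucleus, fell in all 7, by 0.33 to 1.04. AGO3, an Argonaute protein, fell in 6 protocols, by 0.45 to 1.00.

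Reads on let-7 genes were few. The count tables hold 12 let-7 rows, and 2 of them, MIRLET7D and MIRLET7F-1, exceeded 3 counts in most libraries, 24 and 17 of 27, with at most 105 and 42 counts. MIRLET7D had 53 to 105 counts in 4i/L/b and 29 to 64 in TL2i libraries, and 0 to 58 in primed libraries. These counts are not scaled to depth. Total counts were 8375416 to 10610790 in 4i/L/b, 13359671 to 19482749 in TL2i, and 7111886 to 15183387 in primed libraries. mRNA libraries do not capture mature let-7, so its level in these cells was not measured.

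A further list holds 7 genes, of the IGF axis, to which IGF2BP proteins owe their name, and of the PLAG family. Of these, 5 rose in TL2i, 4 in NHSM-v, 4i/L/b, and LCDM (EPS), 3 in t2iLGöY and TL-CDK8i, and 0 in E-NHSM cells. In each protocol 1 to 3 fell. Of all genes 11.1% rose in E-NHSM and 22.3% to 28.2% in the other protocols. The share of all genes that fell was 15.1% in E-NHSM and 23.8% to 30.6% in the other protocols. Many of the rises were those of PLAG1, PLAGL1, and PLAGL2, which rose in 3, 6, and 5 protocols. IGF2 rose in 5, and IGF2R rose in 3 and fell in 3. The list median was -0.20 in E-NHSM and 0.32 to 0.79 in the other protocols. IGF2, the fetal growth factor, was at 0 to 0.975 CPM in primed libraries and reached 94.2 to 132 CPM in TL2i, 69.9 to 108 CPM in 4i/L/b, and 40.4 to 93.0 CPM in TL-CDK8i libraries. These 3 protocols are among the 4 in which HMGA2 rose, though its call in TL2i cells was lost under several alternatives. The fourth, NHSM-v, held 2.64 to 4.85 CPM of IGF2, and E-NHSM libraries held 0 to 0.612 CPM, below the filter of that comparison. PLAGL1, an imprinted zinc-finger factor, rose in 6 protocols, to 241 to 262 CPM in LCDM (EPS) from 2.90 to 11.1 CPM in primed libraries (4.98 ± 0.251), and fell in E-NHSM cells (-2.08 ± 0.590). INSR, the insulin receptor, fell in 6 protocols, most in TL2i cells (-1.39 ± 0.137), and IGF1R, its relative and also on the let-7 list, fell in 4, by 0.31 to 0.57, and rose in TL-CDK8i cells (0.36 ± 0.0917). Without E-NHSM replicate 2, the 3 calls in E-NHSM cells became 1.

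Over the 27 libraries, the genes whose log2 CPM was most like that of 6 of the members, MYC, MYCN, LIN28A, LIN28B, IGF2BP1, and HMGA2, were found among 9913 genes, by Pearson's r. These are descriptions, since libraries of a group share their state and 1 clonal line. The pattern of LIN28A was most like that of TRIM71 (r = 0.983), PPP2R1B (0.971), and HMHA1 (0.967), and that of LIN28B like HMHA1 (0.965), TRIM71 (0.960), and PLS1 (0.951). For MYC the nearest were PPM1H (0.940), PDIA3 (0.939), and ITM2C (0.935), and for MYCN TYMS (0.924), NR6A1 (0.907), and BAZ2A (0.901). HMGA2 was followed by DAB1 (0.919), GJC1 (0.916), and IER5 (0.912). IGF2BP1 had the loosest match of these 6, with CDH10 (0.879), PSD3 (0.865), and its own relative IGF2BP2 (0.856).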

How the data were processed

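Directional mRNA libraries of 27 samples were sequenced as single reads. Per the labels, the submitters' processing notes name bcl2fastq, cutadapt, HISAT2, and HTSeq. Versions, build, and annotation are not given in the sources used here, so no positions are printed. The authors deposited raw counts per gene symbol, not normalized and not pooled. All 27 columns were mapped by name, those of primed cells to the group only, and 0 were left over. TMM factors, CPM, and the quasi-likelihood test came from edgeR 4.0.16 (limma 3.58.1, R 4.3.3), on genes kept by filterByExpr, on each comparison's own groups without a block. The main text of the paper names no model, and its supplemental procedures were not used here. Adjustment was Benjamini-Hochberg over all genes tested, at 0.05, and intervals are ±2 standard errors. The procedure was tested on simulated counts. Depth ranged from 7111886 to 20760914, and floors cover counting error only. All 36 pairs of libraries within a group differed by more than counting noise (mean chi-square over genes 4.06 to 30.8), so none was counted as a duplicate.

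The members, lists, and rules were chosen with earlier results of these data known. Of each list, up to 2 genes that rose and 2 that fell most on average are named, among those called the same way in at least 4 of 7 protocols. For likeness, the prior count was 2 and genes had a mean log2 CPM of at least 3. AGO1 and CDC25A were not matched by symbol, and DICER1 and IGF1R stand in 2 lists. The alternatives were DESeq2 1.42.0, upper-quartile normalization, no filter, a floor of 10 counts in each library, an absolute log2 fold change of at least 1, all 8 groups in one fit, primed columns of 1 letter, a replicate block, and each library left out. The count ratios and their alternatives were added after seeing the data.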

Additional observations from a re-analysis of the deposited data

Results flagged for a closer look

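Among the primed libraries, MYCL in K2 stood apart from the other 5 at 33.9 CPM, by a Dixon gap over the range of that group of 6. Of the 10 genes, each tested in the primed group, this was the 1 so marked, and chance marks about 1 group in 20. Without K2, MYCL in t2iLGöY cells went from -0.06 to 0.02 on the log2 scale, and neither value passed the test. Groups of 3 libraries were not tested.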

How the results depend on the processing

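Of 90 member log2 fold changes in 9 comparisons, 50 kept their direction and their side of the threshold under every alternative that tested them. Of the 90, 30 lost a call under at least 1 alternative, 4 gained one, and 9 changed sign. LIN28A had 8 counts in NHSM-v replicate 2. With a floor of 10 counts in each library it was therefore not tested in NHSM-v against primed or E-NHSM cells. Most lost calls came from a minimum absolute log2 fold change of 1, under which fewer genes can pass by construction, and 3, 4, 4, and 1 members stayed called in TL2i, LCDM (EPS), and TL-CDK8i against primed cells and in TL-CDK8i against TL2i.

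The values that changed sign were small. Against the K columns alone, LIN28A and LIN28B in E-NHSM cells were -0.054 and -0.14. Against the J columns alone, LIN28B and IGF2BP1 in TL2i cells were 0.25 and 0.075, MYCL in t2iLGöY and TL-CDK8i cells 0.088 and 0.064, and HMGA2 in LCDM (EPS) cells 0.089. Upper-quartile normalization gave 0.0054 and 0.010 for LIN28B and IGF2BP1 in TL2i cells, and at least 10 counts in every library gave 0.0080 and 0.014, with 0.017 for HMGA2 in LCDM (EPS) cells. DESeq2 gave 0.0041 for that gene and 0.0023 for HMGA1 between TL-CDK8i and TL2i cells, for which no filter gave 0.0021 and all 8 groups in one fit 0.012. With a library left out, LIN28B in TL2i cells ran from -0.17 to 0.056, IGF2BP1 from -0.10 to 0.012, MYCL in t2iLGöY cells from -0.21 to 0.023, HMGA2 in LCDM (EPS) cells from -0.082 to 0.039, and LIN28A and HMGA1 between TL-CDK8i and TL2i cells from -0.15 to 0.061 and -0.13 to 0.12. The cause was not tested.

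No paired analysis was possible for the comparisons with primed cells because the letters and numbers of the primed columns could not be matched to the labelled replicates, so they pair no libraries across groups. Between protocols, same-numbered libraries did not deviate together (r from -0.127 to 0.011). With 3 libraries a group a weak shared effect could go unseen, so what the numbers share is not known. With the replicate block, TL-CDK8i against TL2i kept 5 calls and NHSM-v against E-NHSM 8, MYCL losing its call (-0.47). The 28 ratio differences moved by less than 1 SD under all 308 alternatives. That outcome was fixed in advance, because leaving out libraries of a group in these ways cannot move its mean by 1 SD. It therefore says nothing about how stable the ratios are. At this depth, genes at or under 3 counts could not be told from 0.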
